A study of Mus musculus with 6 samples.

Results

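The STAT, SOCS, PIM and BCL6 genes are 10 mouse genes of cytokine signalling: the transcription factor genes Stat3, Stat5a, Stat5b and Stat6, the kinase genes Pim1 and Pim2, the feedback inhibitor genes Socs1, Socs3 and Cish, and the repressor gene Bcl6. They were chosen by name, with earlier results of these data known. Each was matched to at least 1 probe set through the platform's annotation, so all 10 were among the 19847 genes tested. Their transcripts were read on 6 whole-transcript arrays of MLL-AF10 cells, a mouse leukemia line named for the fusion gene it carries. Of these, 3 were of cells treated with 0.5 µM of an IKK inhibitor and 3 were of cells given vehicle. Both groups grew in RPMI medium with fetal bovine serum and medium conditioned by WEHI cells, which is commonly used as a source of interleukin 3 for mouse blood cells. The sources used here name neither the compound nor the vehicle and give no time of treatment, and they do not say if the arrays of a group stand for separate cultures. The p-values thus cover the spread among these arrays alone, possibly a technical one, and the number of arrays limits the precision. As 1 cell line was used, the values describe that line.

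Cytokines such as interleukin 3, interleukin 6 and the interferons bind receptors that carry JAK kinases, and the JAKs phosphorylate STAT proteins, which then dimerise and switch on genes in the nucleus. Among the genes that STAT proteins induce are those of their own inhibitors, the SOCS family with Cish, and those of the PIM kinases, which favour survival and growth of blood cells and leukemias. BCL6 is a zinc finger repressor best known from germinal centre B cells; it also restrains inflammatory genes in macrophages, and it binds DNA sequences that resemble those of STAT proteins. IKK kinases act in a different pathway, where they release NF-kB transcription factors from their inhibitors.

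With the IKK inhibitor Bcl6 more than doubled, Pim2, Socs3 and Cish rose by smaller amounts, Pim1 fell, and the 4 STAT genes and Socs1 did not pass the test. A gene was called when its Benjamini-Hochberg adjusted p, over all 19847 genes of a limma fit to log2 intensities, was under 0.05. By this rule 4 of the 10 genes were higher and 1 was lower, 5 in all, while 13.9% of all genes tested were called, 7.1% higher and 6.75% lower. These shares include many dim genes. With only genes above the median intensity tested, 5 of the 9 genes left were called (55.6%), against 39.8% of all genes so tested. These were not the same 5, as that filter left Bcl6 untested and Stat6 was called. In 6 of the 10 genes the 3 inhibitor arrays lay wholly above (5 genes) or below (1 gene) the 3 vehicle arrays, an arrangement found in 32.9% of all genes tested. The median log2 fold change, inhibitor over vehicle, was 0.12 over the 10 genes and 0.01 over all genes. No value of the 10 genes was under the floor of 16 below which intensities were levelled before log2 was taken. Without detection calls, that floor does not show which values stand above background. When each of the 6 arrays was left out in turn, Bcl6, Pim1 and Pim2 were called in all 6 fits, Socs3 in 5 and Cish in none.

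**Figure D1:**
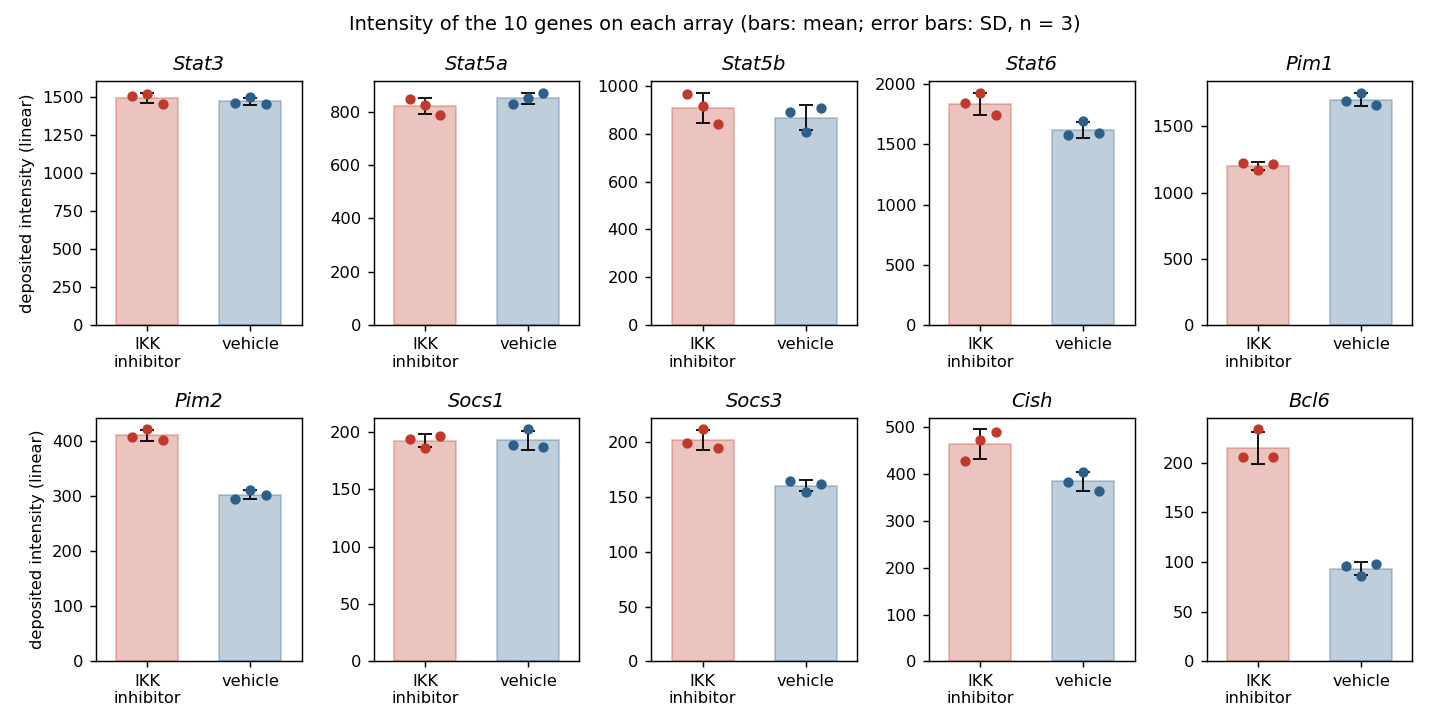
Deposited intensity of each of the 10 genes, on linear axes that start at 0, with 3 IKK inhibitor arrays left and 3 vehicle arrays right in each panel; bars are means, error bars SD and points single arrays. The groups do not overlap for Stat6, Pim1, Pim2, Socs3, Cish and Bcl6, and Bcl6 averaged 215 with the inhibitor and 93.4 with vehicle.

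The sequences around the annotated starts of these genes are shown because STAT dimers bind a short palindrome, TTCNNNGAA, the gamma activated sequence. RefSeq windows on GRCm38.p6, each with 250 bases before a start and 50 from it on, were matched for all 10 genes, 14 windows in all since some genes have more than 1 start. The motif reads the same on both strands. It occurred in 4 of the 14 windows, in Socs3, Cish and both windows of Bcl6, and in 8.3% of all 32851 windows of 300 bases. Below, written 5′ to 3′ on the gene's strand, capitals mark each TTCNNNGAA. The genes shown are those that were called higher and carry the motif, with the first Pim1 window, which has none, for comparison. Pim2, also called higher, has no match and is not shown.
Cish, chr9:107296409-107296708, plus strand: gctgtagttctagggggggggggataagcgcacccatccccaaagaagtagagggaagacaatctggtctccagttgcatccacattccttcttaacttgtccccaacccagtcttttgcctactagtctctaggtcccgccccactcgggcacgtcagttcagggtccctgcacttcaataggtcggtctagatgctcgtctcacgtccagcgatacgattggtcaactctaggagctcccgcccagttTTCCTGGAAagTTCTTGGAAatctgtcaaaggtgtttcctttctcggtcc
Socs3, chr11:117969317-117969616, minus strand: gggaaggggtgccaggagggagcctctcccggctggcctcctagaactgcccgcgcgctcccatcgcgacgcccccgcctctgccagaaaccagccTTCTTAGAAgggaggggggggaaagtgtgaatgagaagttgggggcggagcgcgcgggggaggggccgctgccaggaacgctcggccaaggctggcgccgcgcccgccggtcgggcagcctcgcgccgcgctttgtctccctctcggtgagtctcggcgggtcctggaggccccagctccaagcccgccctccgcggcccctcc
Bcl6, first window, chr16:23988803-23989102, minus strand: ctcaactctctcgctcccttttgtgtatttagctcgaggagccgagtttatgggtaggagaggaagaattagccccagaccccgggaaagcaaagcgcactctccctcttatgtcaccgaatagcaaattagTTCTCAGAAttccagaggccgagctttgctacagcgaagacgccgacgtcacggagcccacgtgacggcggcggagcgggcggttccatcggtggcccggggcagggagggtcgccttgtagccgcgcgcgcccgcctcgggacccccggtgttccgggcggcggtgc
Bcl6, second window, chr16:23981234-23981533, minus strand: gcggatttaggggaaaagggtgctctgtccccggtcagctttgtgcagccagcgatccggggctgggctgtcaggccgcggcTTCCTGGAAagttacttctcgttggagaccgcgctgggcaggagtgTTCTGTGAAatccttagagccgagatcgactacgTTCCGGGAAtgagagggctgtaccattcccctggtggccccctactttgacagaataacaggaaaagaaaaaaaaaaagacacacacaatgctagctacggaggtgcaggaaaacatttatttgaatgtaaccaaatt
Pim1, first window, chr17:29490535-29490834, plus strand: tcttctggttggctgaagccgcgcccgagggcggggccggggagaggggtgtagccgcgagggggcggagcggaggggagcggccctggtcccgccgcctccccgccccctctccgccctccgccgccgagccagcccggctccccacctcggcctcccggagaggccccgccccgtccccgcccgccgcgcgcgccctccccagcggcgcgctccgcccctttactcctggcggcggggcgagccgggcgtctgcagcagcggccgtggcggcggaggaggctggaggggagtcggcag

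The Cish window held a tandem pair, TTCCTGGAA at base 1 and TTCTTGGAA at base 12 counted from the annotated start. In Socs3 a single match, TTCTTAGAA, began 154 bases before the start. The first Bcl6 window had TTCTCAGAA, which began 118 bases before its start, and the second had 3 matches that began 168, 122 and 88 bases before its own. Pim2, Socs1, the second Pim1 window and all windows of the STAT genes held none. The wider spacing TTCNNNNGAA, which STAT6 also binds, was in 0 of the 14 windows and in 6.95% of all windows. The NF-kB consensus, searched on both strands and sharing no base with the other motifs here, was in 1 of the 14 windows, the second of Stat5a, and in 8.46% of all windows. These matches describe letters in short windows only, and binding was not measured.

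Bcl6 changed most among the 10 genes. Its intensities were 205.2, 233 and 206 on the 3 inhibitor arrays, against 95.9, 86.1 and 98.1 on the 3 vehicle arrays. Every inhibitor array was above every vehicle array, and the gap between the groups was wider than the spread within either. The means were 215 ± 16.2 with the inhibitor and 93.4 ± 6.41 with vehicle (SD, n = 3 each). The log2 fold change was 1.20 ± 0.08 (SE), a 2.30-fold rise with a 95% interval of 2.02 to 2.62, and the limma adjusted p was 0.000257. Bcl6 ranked 112 by p among the 19847 genes. Its vehicle mean was under the median of all values, 118, and near the median intensity of 8 T cell marker genes over the 6 arrays, 95.7. How much of the Bcl6 signal with vehicle is background is not known here. With any of the 6 arrays left out the log2 fold change stayed between 1.14 and 1.24 and the adjusted p between 0.000968 and 0.00334.

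The PIM kinases, which phosphorylate proteins of the cell cycle, of translation and of cell death, changed in opposite directions. Pim1 gave intensities of 1224, 1169 and 1213 on the inhibitor arrays, against 1691, 1756 and 1664 on the vehicle arrays. The highest inhibitor array was below the lowest vehicle array. Its means were 1202 ± 29.1 with the inhibitor and 1704 ± 47.2 with vehicle (SD, n = 3 each), and its log2 fold change was -0.50 ± 0.05 (SE, limma adjusted p = 0.00147), a fall of 29.4%. Pim2 gave 408, 421 and 402 on the inhibitor arrays, against 295, 310.4 and 302 on the vehicle arrays. Again the groups did not overlap, here with the inhibitor arrays higher. Its means were 410.0 ± 9.88 and 302 ± 7.73 for inhibitor and vehicle (SD, n = 3 each). This was a rise of 35.6%, or 0.44 ± 0.05 on the log2 scale (SE, limma adjusted p = 0.00247). Both calls held with each array left out, with adjusted p of 0.00565 to 0.0118 for Pim1 and 0.0085 to 0.0174 for Pim2.

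Among the feedback inhibitors, Socs3 and Cish were called higher and Socs1 was not called. SOCS3 binds the gp130 chain of interleukin 6 family receptors and other receptors and blocks the attached JAK kinases. Socs3 gave intensities of 199, 212 and 194 on the inhibitor arrays, against 165, 155 and 162 on the vehicle arrays. All inhibitor arrays lay above all vehicle arrays. The means were 202 ± 8.99 with the inhibitor and 161 ± 5.17 with vehicle (SD, n = 3 each), the log2 fold change was 0.33 ± 0.06 (SE) and the limma adjusted p was 0.0116. The adjusted p was 0.0557 without vehicle array 2 and 0.0554 with each array centred on its own median.

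The platform lists a second Socs3 probe set, which the annotation ties to a single other accession. It gave 166, 168 and 158 on the inhibitor arrays, against 158, 155 and 163 on the vehicle arrays, and there the groups overlapped. With every probe set tested singly its log2 fold change was 0.05 ± 0.05 (SE, limma adjusted p = 0.623), whereas that of the brighter probe set, which carries the RefSeq transcript, was 0.33 ± 0.06 (adjusted p = 0.0121). With the 2 averaged the gene's log2 fold change was 0.19 and its adjusted p 0.0591. The call of Socs3 therefore rests on 1 of its 2 probe sets. That probe set was used for its higher mean over all arrays, inhibitor arrays included. With vehicle the means of the 2 were alike, 160.6 for the brighter and 158.6 for the other. With the inhibitor they were 201.9 and 164, so the choice drew on the rise itself and is no separate reason to prefer it.

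CISH, the first described member of the SOCS family, is induced by STAT5 downstream of interleukin 3 and related cytokines. Cish gave intensities of 429, 473 and 490.1 on the inhibitor arrays, against 384, 405 and 364 on the vehicle arrays. The groups did not overlap, but the lowest inhibitor array stood close to the highest vehicle array. Its means were 464 ± 31.5 with the inhibitor and 384 ± 20.6 with vehicle (SD, n = 3 each), and its log2 fold change was 0.27 ± 0.07 (SE). The limma adjusted p of 0.0488 was just under the threshold. It was lost whichever array was left out, with adjusted p between 0.0539 and 0.157, it was 0.132 with each array centred on its own median, and with a replicate block it was 0.0902. SOCS1 inhibits JAK kinases directly and restrains interferon signalling. Socs1 gave 194, 186 and 197 on the inhibitor arrays, against 188, 202 and 187 on the vehicle arrays, with overlapping groups. Its log2 fold change was -0.0025 with a 95% interval of -0.13 to 0.13, so that the interval of the fold ran from 0.91 to 1.09.

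Of the 4 STAT genes limma called none, and 1, Stat6, had an unadjusted p under 0.05. STAT3 serves interleukin 6, interleukin 10 and granulocyte colony-stimulating factor, STAT5A and STAT5B serve interleukin 3 and related growth factors, and STAT6 serves interleukin 4 and interleukin 13. Stat6 came nearest to the threshold. It gave intensities of 1844, 1929 and 1747 on the inhibitor arrays, against 1576, 1694 and 1594 on the vehicle arrays. The groups did not overlap, yet the log2 fold change of 0.18 ± 0.06 (SE) had a limma adjusted p of 0.0943. Its 95% interval, which is not adjusted for the number of genes, was 0.04 to 0.32. Stat6 was called with an intensity trend and robust prior in the fit (adjusted p = 0.00578), with array weights (0.0486) and when only genes above the median intensity were tested (0.0243).

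Stat3 gave 1509, 1520.4 and 1456 on the inhibitor arrays, against 1460.3, 1500 and 1456 on the vehicle arrays. Its groups overlapped almost fully, and the 95% interval of its fold was 0.94 to 1.10. Stat5a gave 850.3, 825 and 790.4 on the inhibitor arrays, against 831, 854 and 873 on the vehicle arrays, and the interval of its fold was 0.89 to 1.05. For Stat5b the values were 969, 919 and 843 on the inhibitor arrays, against 890.4, 809 and 909 on the vehicle arrays. Both genes had overlapping groups, and the interval of the Stat5b fold was 0.93 to 1.18. The adjusted p of Stat3, Stat5a and Stat5b was 0.823, 0.59 and 0.642 by limma. The 3 genes neighbour each other on chromosome 11. Stat5a and Stat5b are close relatives in sequence, and whether their probe sets read each other's transcripts is not known here. Any change in the amount of phosphorylated STAT protein is outside what these arrays measure.

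**Figure D2:**
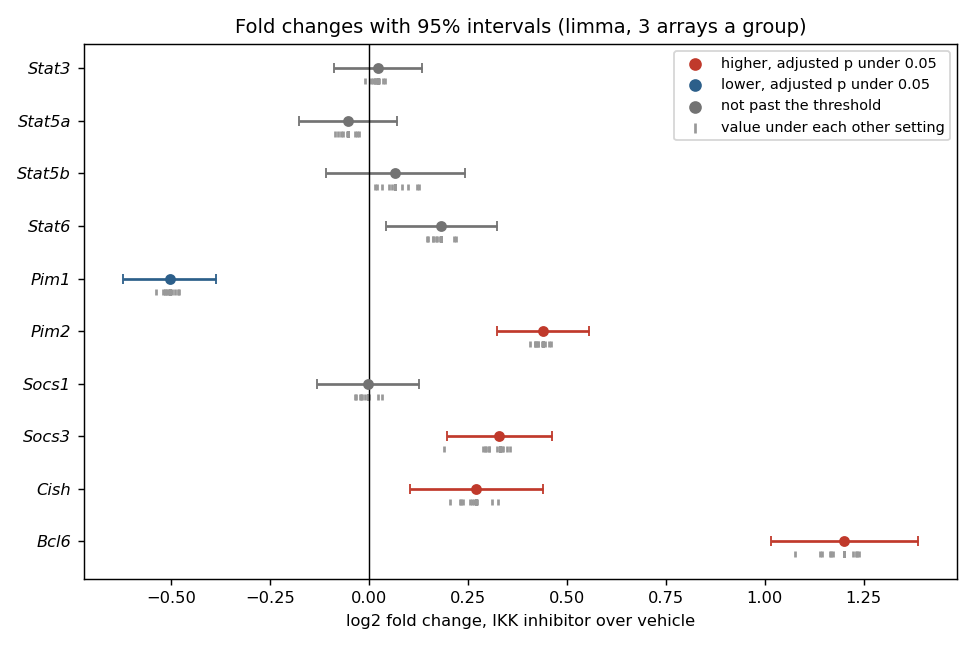
Log2 fold change of each gene, inhibitor over vehicle, with its 95% interval from limma (3 arrays a group); small ticks below each point are the values under the other settings tried. Bcl6 lies farthest from 0 at 1.20, Pim1 at -0.50 and Pim2 at 0.44 keep their side under each setting drawn, and the intervals of Stat3, Stat5a, Stat5b and Socs1 span 0.

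Relatives were also set against each other within each array, a difference that does not depend on how arrays are scaled to each other. The log2 difference Pim1 minus Pim2 was 1.59, 1.47 and 1.60 on the inhibitor arrays, against 2.52, 2.50 and 2.46 on the vehicle arrays. Its mean shifted by -0.94 ± 0.04 (SE), and the groups did not overlap. Socs1 minus Socs3 was -0.04, -0.19 and 0.01 on the inhibitor arrays, against 0.19, 0.38 and 0.21 on the vehicle arrays, a shift of -0.33 ± 0.09 (SE). These groups did not overlap either, but the shift rests on the brighter Socs3 probe set and was -0.19 with the 2 probe sets averaged. For Stat5a minus Stat5b the differences were -0.19, -0.16 and -0.09 with the inhibitor, against -0.10, 0.08 and -0.06 with vehicle, and the shift was -0.12 ± 0.06 (SE), or -0.07 without vehicle array 2. In exact two-sided permutation tests the p was 0.1 for the PIM pair, 0.1 for the SOCS pair and 0.2 for the STAT5 pair, or 0.15, 0.15 and 0.2 adjusted over the 3 pairs. With 3 arrays against 3 the smallest p possible is 0.1, so none of these could pass.

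**Figure D3:**
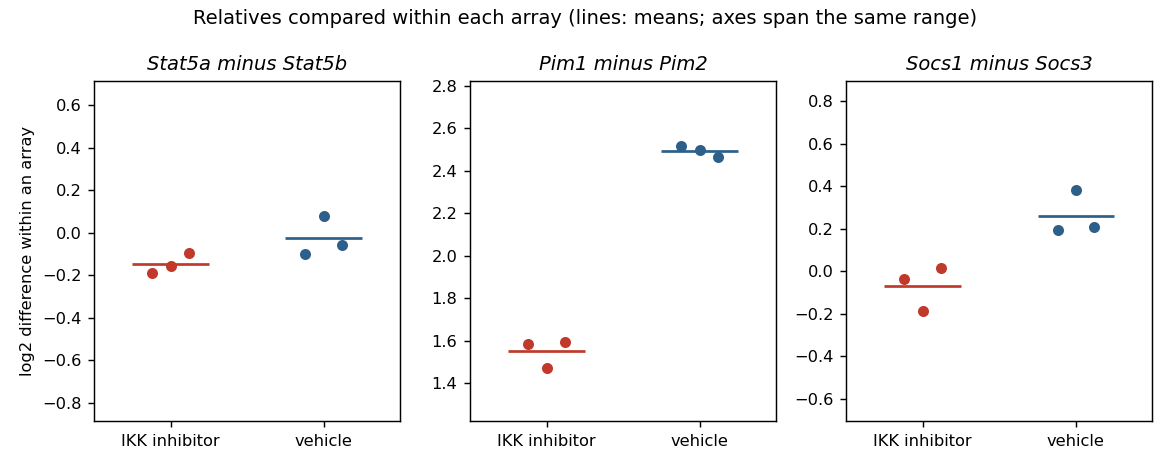
Within-array log2 differences between relatives on 3 inhibitor arrays (left) and 3 vehicle arrays (right); points are arrays and lines are means, and the 3 axes span the same range. The PIM pair shifted by -0.94 and the SOCS pair by -0.33 without overlap, while the STAT5 pair overlapped.

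No single array of a group was highest or lowest for all 10 genes. Inhibitor array 2 was the highest inhibitor array for 5 of them, Stat3, Stat6, Pim2, Socs3 and Bcl6, and the lowest for 2, Pim1 and Socs1. Inhibitor array 3 was the lowest for 6 of the 10. Among vehicle arrays, array 2 was the highest for 6 genes and the lowest for 3, Stat5b, Socs3 and Bcl6. The SD was between 2.30% and 7.54% of the mean over the 3 inhibitor arrays and between 1.64% and 6.86% over the 3 vehicle arrays.

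The genes whose log2 values over the 6 arrays were most like those of Bcl6 were S100a1, Prr13 and Btg1, and those most like Pim1 were Ccm2l, Id1 and Gars. The measure was the Pearson coefficient, 0.999 for each of the 3 genes like Bcl6 and between 0.9967 and 0.9996 for those like Pim1. It is given as a description without a test, since the arrays form separate groups and any gene with well separated groups scores high. The fold changes differed, at 0.61 for Prr13, 0.48 for Btg1 and 0.19 for S100a1 on the log2 scale, against 1.20 for Bcl6. Ccm2l and Id1, whose protein blocks differentiation factors of the helix-loop-helix class, had log2 fold changes of -0.46 and -0.40, and Gars, which encodes a glycyl-tRNA synthetase, had -0.18.

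Genes that act upstream of the STAT proteins were measured in the same fit. Beside the list counts here and in the following paragraphs, 7.1% of all genes were called higher and 6.75% lower. These shares belong to the adjusted p and are no background for counts at an unadjusted p. Of 3 JAK kinase genes tested, Jak2 and Tyk2 were called higher, with log2 fold changes of 0.27 and 0.26, and Jak1 had 0.15 and did not pass. The list median was 0.26, against 0.01 over all genes. Neither JAK call held with any array left out, when the adjusted p was 0.0524 to 0.0973 for Jak2 and 0.0628 to 0.147 for Tyk2. Of 19 cytokine receptor chains tested, 7 were higher and 1 was lower, with a median log2 fold change of 0.15. The receptor for the anti-inflammatory cytokine interleukin 10, Il10ra, had intensities of 272, 293 and 281 on the inhibitor arrays, against 136, 146 and 154 on the vehicle arrays. Its log2 fold change was 0.96 ± 0.06 (SE, limma adjusted p = 0.000257), and the groups were far apart. Il13ra1, a chain that signals through STAT6, rose by 0.78, Csf2rb2, the interleukin 3 specific beta chain, by 0.56 and the interleukin 6 receptor gene Il6ra by 0.49 on the log2 scale. Csf2rb, the beta chain shared by several cytokines and named here after its value was seen, rose by 0.37. Csf2rb and Csf2rb2 are near-identical, so reads of one by the other's probes cannot be told apart here. Il3ra, the alpha chain of the interleukin 3 receptor and also named after its value was seen, did not pass, with a log2 fold change of 0.07. With an array left out 5 or 6 chains were called higher and none lower.

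The other STAT genes tested, Stat2 and Stat4, did not pass, at -0.03 and -0.08 on the log2 scale. Of 6 further SOCS and PIM genes, Socs2 was the one called. Socs2, a STAT5 target that limits growth hormone signalling, had intensities of 485, 506 and 463 on the inhibitor arrays, against 657, 669 and 653 on the vehicle arrays. It fell by 0.45 on the log2 scale (SE 0.05, limma adjusted p = 0.00317) without overlap of the groups. Pim3 did not pass, at -0.20 on the log2 scale (adjusted p = 0.0613), and Socs4, Socs5, Socs6 and Socs7 lay between -0.05 and 0.02. Of 13 phosphatases, PIAS proteins and adaptors that restrain JAK-STAT signalling, limma called 4 higher and none lower, with a median of 0.07. At an unadjusted p under 0.05, for which no share of all genes was taken, the counts were 5 and 0. Ptpn1, a phosphatase that acts on JAK2 and TYK2, rose by 0.57 ± 0.05 on the log2 scale (SE), to 1790.2 with the inhibitor against 1202 with vehicle in mean intensity. Cbl, a ubiquitin ligase of activated receptors, rose by 0.28. Sh2b3 and Ptprc were each called at 0.19, and with any array left out they were not, which left 2 of the 4 calls, or 1 with each array centred on its own median.

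Genes known as targets of the STAT proteins did not share a direction across the lists. Of 19 other STAT5 targets tested, 5 were higher and 5 were lower, with a median log2 fold change of 0.02 that turned to -0.01 with each array centred on its median. Cd9 (1.35), the ERK phosphatase gene Dusp6 (1.19) and the survival gene Mcl1 (0.44) were among the higher genes, and Id1 (-0.40) and Socs2 (-0.45) among the lower. Myc, which drives cell growth and was named after its value was seen, fell by 0.35. Of 20 STAT3 targets limma called 9 higher and none lower, with a median of 0.22, and at an unadjusted p under 0.05 the counts were 13 and 0. Among them were Fos (1.15), the interleukin 1 receptor antagonist gene Il1rn (0.97) and the neutrophil alarmin gene S100a9 (0.72). With only genes above the median intensity tested, 12 of 18 STAT3 targets were higher. Of all genes so tested 1742 were called higher and 2208 lower, which together make 39.8%. No share of all genes at an unadjusted p was taken. S100a8, S100a9 and Lcn2 also stand on the neutrophil list and Mcl1 on the STAT5 list, so these genes count on more than 1 list. The part of STAT3 in the count was not tested. Of 17 STAT6 targets of macrophages 4 were higher, Chil3 (0.91), Irf4 (0.54), Mrc1 (0.38) and Pparg (0.37), and 13 did not pass. The median was 0.02, or -0.01 with each array centred on its median. With an array left out, 2 to 4 STAT6 targets were called, Mrc1 in 1 and Pparg in 2 of the 6 fits, and the count of STAT3 targets was 7 or 8.

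Genes described as repressed by BCL6 in B cells or macrophages moved in both directions beside the rise of Bcl6 itself. Of 16 tested, 8 were higher and 3 were lower, while 7.1% and 6.75% of all genes were. With only genes above the median intensity tested, 7 of 14 of these targets were higher and 4 lower. Of all genes so tested 1742 were called higher and 2208 lower, which together make 39.8%. The median of the 16 was 0.25 on the log2 scale. The chemokine gene Ccl2 gave 682, 714 and 629 on the inhibitor arrays, against 211, 233 and 237 on the vehicle arrays. The groups were far apart, and its log2 fold change was 1.57 ± 0.07 (SE, limma adjusted p = 7.69e-05). Ccl7 rose by 1.13, the helix-loop-helix gene Id2 by 0.82 and Ccl3 by 0.42 on the log2 scale. The 3 called lower, named after their values were seen, were the checkpoint kinase genes Chek1 (-0.39) and Atr (-0.36) and the cyclin gene Ccnd2 (-0.22), and between 1 and 3 of them were called with an array left out. Of 5 genes for BCL6 corepressors, Bcor, Hdac3, Sin3a, Mta3 and Ctbp1, none was called in limma's fit over all 19847 genes, 0 had an unadjusted p under 0.05, and their log2 fold changes lay between -0.06 and 0.06. Of 9 genes for PIM substrates, Map3k5, a stress kinase, rose by 0.71, Foxo3 was called higher at 0.24 and Cdc25a lower at -0.25. With an array left out Foxo3 was not called and Cdc25a was called in 1 of 6 fits.

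**Figure D4:**
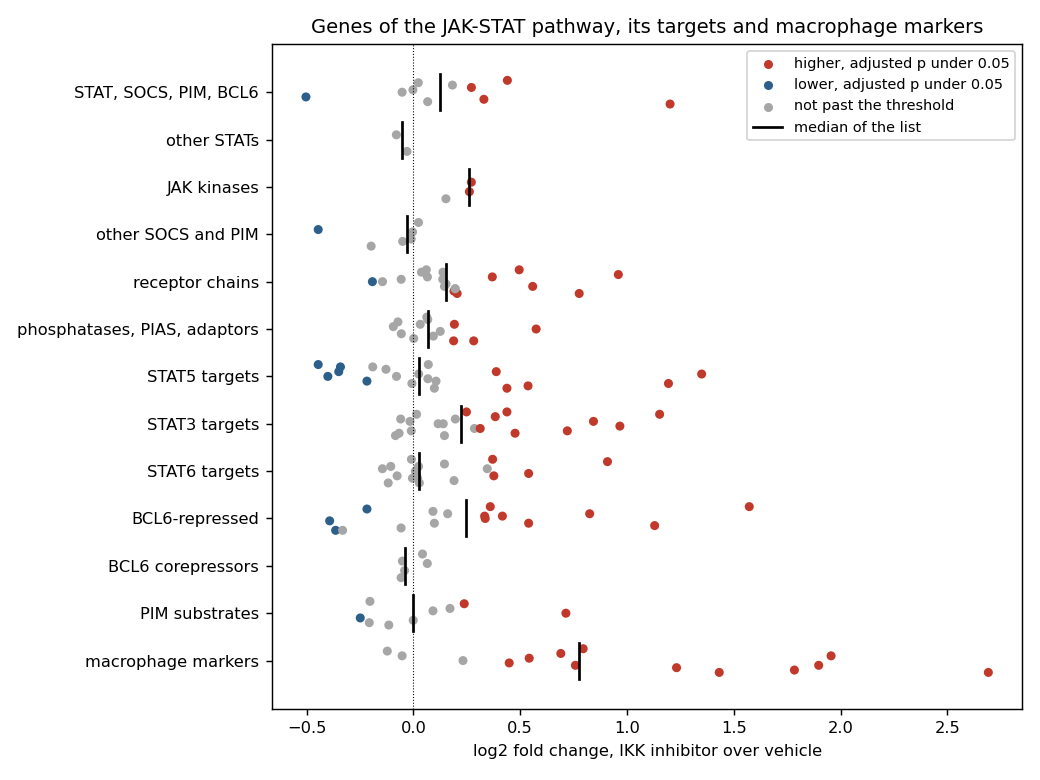
Log2 fold change, inhibitor over vehicle, of single genes (points) in the 10 genes described and in lists of the pathway, its targets and macrophage markers; black lines are list medians and colours mark calls at an adjusted p under 0.05. STAT3 targets hold 9 higher and 0 lower calls, STAT5 targets 5 and 5, and macrophage markers have the median farthest right at 0.78. All lists were chosen with earlier results of these data known.

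Markers of maturing myeloid cells moved in the same arrays. Of 14 monocyte and macrophage markers 11 were called higher by limma and none lower, with a median of 0.78 on the log2 scale. At an unadjusted p under 0.05, for which no share of all genes was taken, the counts of these markers were the same. Their summed intensity was 19610 to 20880 on the inhibitor arrays and 10890 to 11310 on the vehicle arrays. Marco rose by 2.69, Gpnmb by 1.78, Adgre1 by 1.43 and Csf1r by 1.23 on the log2 scale. The 3 not called, named after their values were seen, were Fcgr1 (0.23), Ccr2 (-0.05) and Cx3cr1 (-0.12). These markers were listed with earlier results of these data known, so their count and median only describe the list. Of 14 neutrophil markers 7 were higher and 3 were lower, with summed intensities of 25760 to 26800 on the inhibitor arrays and 23760 to 24660 on the vehicle arrays. Mpo fell by 2.62 on the log2 scale, while Mmp9 (1.45), Ngp (0.74) and S100a9 (0.72) rose. Prtn3 (-0.28) and Elane (-0.24), named after their values were seen, were also lower, Elane in 1 of the 6 fits with an array left out. The sum, weighted to the brightest genes, does not show these opposite changes. For T cell markers the sum over 8 genes was 740.1 to 879 with the inhibitor and 794 to 889 with vehicle, for B cell markers over 7 genes 654 to 703 and 568 to 632, and for erythroid markers over 4 genes 416 to 471 and 444 to 469. Of these lists only Cd22 (0.79) and Blnk (0.32), both B cell markers, were called, each higher. Another B cell marker, Cd79a, went the other way, at -0.33 on the log2 scale without overlap of the groups. It did not pass in the main fit (limma adjusted p = 0.0869). With quantile normalization or median centring, 1 B cell marker was called lower. Of 7 mast cell and basophil markers, Hdc and Kit were called lower, Kit in 2 of the 6 fits with an array left out, and the sum was 890.1 to 913 with the inhibitor and 1040 to 1088 with vehicle. The part of these shifts in the changes of Bcl6, Pim1, Pim2, Socs3 and Cish was not tested, and in RNA from whole cultures more cells of a type and more RNA per cell cannot be told apart.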

How the data were processed

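Total RNA of the MLL-AF10 cells was turned into biotinylated sense-strand DNA for whole-transcript arrays, per the labels' protocols. Affymetrix Expression Console, the tool that the submitters' processing notes name, gave the deposited intensity values. Its version, the way probes were summarized and any normalization by the authors are not stated in these sources. The table holds 35512 probe sets with linear values from 0.71 to 8185.74 and no detection calls. Array medians lay between 112 and 124, and no scaling was added in the main fit. Correlations of log2 values between arrays of a group were 0.993 to 0.997 (0.988 to 0.991 between groups), which does not show if scaling is needed. With each array centred on its own median 1794 genes were called, against 2749 without. Groups came from the treatment labels and replicate numbers from the titles.

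Values under 16 (5.94% of all) were set to 16 and log2 was taken. Of the probe sets 21789 had 1 gene symbol, 1621 had several and 12102 were not listed; symbols were updated through Entrez numbers for 21698. For each of the 19938 genes the probe set with the highest mean was used, and 91 genes with no value above the floor were left out. The comparison of inhibitor with vehicle used limma 3.58.1 under R 4.3.3 (lmFit, eBayes, 2-sided, no covariates, adjusted p under 0.05); SE and 95% intervals of single genes are those of the fit. The fit was also run on simulated data with independent noise, which cannot show if these arrays need scaling or a replicate block. Exact permutation tests served the within-array differences.

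The 10 genes, the lists, the rule for named genes (the 10 genes, up to 4 genes of the smallest p per list, and the 3 genes most like each of the 2 members of smallest p) and the alternatives were chosen with earlier results of these data known. Some genes stand on more than 1 list; listed genes without a tested probe set were not analysed here. Correlations of deviations between same-numbered arrays of the 2 groups were 0.241, 0.133 and -0.0935, and between differently numbered arrays -0.287 to 0.177. These do not settle if equal numbers mark pairs. The numbers were not taken as pairs in the main fit, and a replicate block was an alternative. The alternatives were a replicate block, quantile normalization, median centring, other floors, filters on dim genes, other treatments of probe sets, an intensity trend with robust prior, array weights, a stricter threshold and leaving out each array.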

Additional observations from a re-analysis of the deposited data

How the results depend on the processing

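Bcl6, Pim1 and Pim2 kept their direction and their call under each alternative that gave them a value; the filter at the median intensity left Bcl6 untested. Over all alternatives their log2 fold changes ranged from 1.08 to 1.24, from -0.54 to -0.48 and from 0.41 to 0.46. Of the 10 genes 5 were called, and 3 with median centring, 3 at an adjusted p under 0.01, and 3 to 4 with an array left out. Socs3 was not called with median centring (adjusted p = 0.0554), with its probe sets averaged (0.0591) or without vehicle array 2 (0.0557). Cish was not called with a replicate block (0.0902), median centring (0.132), a floor of 1 (0.0512), array weights (0.0723) or any array left out, so the block changed no call among the 10 genes but that of Cish. Stat6 was called above the median intensity (0.0243), with an intensity trend and robust prior (0.00578) and with array weights (0.0486). Genes close to 0 changed sign: Stat3 gave -0.0112 with median centring, and Socs1 gave 5.71e-05 with array weights and -0.0231 to 0.0329 with an array left out. The Socs1 minus Socs3 shift was -0.19 with probe sets averaged. Of all genes 2749 were called, against 1679 with the block, 1794 with median centring, 4199 with the trend, 4334 with array weights, 984 at the stricter threshold, and 1183 to 2810 with an array left out; the cause was not tested. Dim genes are limited by the unknown background.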
